A study of Mus musculus with 4 samples.

Results

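Collagens are the trimeric proteins that give connective tissue its mechanical frame, and fibroblasts are their main source. The collagen genes of the deposited expression table were taken as all rows whose symbol consists of Col, a type number, the letter a and a chain number, which gave 44 of 32230 symbols. Each gene codes for a chain, and 3 chains wind into a triple helix, either of a single kind or of a fixed mixture, so the chains of a mixed type are needed together. The fibrillar types bundle into the fibrils of skin, tendon and bone. Type IV forms the sheet of basement membranes, type VI forms beaded filaments around cells, and the fibril associated types decorate fibrils without forming them. Silencing of mesenchymal genes is a known early step of fibroblast reprogramming towards pluripotency, and collagens belong to the program that the starting cells express.

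The cells were 4F2A mouse embryonic fibroblasts, which the labels give as isolated from homozygous male embryos at mid-gestation and kept in serum replacement medium with LIF, a cytokine that supports pluripotent cells. Doxycycline switches on their transgene cassette, which codes for Oct4, Sox2, Klf4 and Myc. In the 4F2A strain as generally described the cassette sits at the Col1a1 locus, downstream of the gene. The labels do not give the site for these embryos, and its part in the Col1a1 values was not tested. Both groups received doxycycline at 2 µg/mL for 48 h and were harvested on day 2. The control group received DMSO, the vehicle, for 1 h on day 0, and the other group received CX-5461, an inhibitor of RNA polymerase I, for 1 h on day 0, at a dose that the labels do not give. Each group had 2 libraries, numbered 2 and 3. The labels call them parallel replicates and do not say that they were separate cultures, so every p-value here reflects the variation among these 4 libraries alone, some or all of which may be technical. No uninduced fibroblasts were analysed here, so the values compare 2 states of the induced culture.

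The deposited values are TPM, a relative transcript abundance on a scale corrected for the length of each gene and set to the same total in every library. Read numbers worked back from the TPM came to 17.5M to 18.6M read units per library. DMSO replicate 3 stood apart in its mitochondrially encoded share, 15.3% of its TPM against 9.20 to 9.96% in the other 3 libraries, which lowers the TPM of all other genes in that library. All 11 fibroblast markers on a list (Pdgfra, Thy1, Vim, Prrx1 and others) were measured above the testing filter, with a summed level of 6335 to 7348 TPM under DMSO and 5705 to 6098 TPM under CX-5461. Skeletal muscle markers were below 1 TPM in every library, with Myod1 and Myog at 0.

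Collagen mRNA made up 1.31% and 1.07% of all TPM in DMSO replicates 2 and 3, and 1.03% and 0.991% in CX-5461 replicates 2 and 3. The summed collagen level was 13076 and 10743 TPM under DMSO and 10289 and 9914 TPM under CX-5461. The groups did not overlap, but their means differed by 15.2% of the DMSO mean while the SD of the DMSO sums was 13.8% of it. Without DMSO replicate 2 the fall was 5.98%, and without DMSO replicate 3 it was 22.7%. With all libraries it was 18.9% after rescaling by median-of-ratios. After removal of mitochondrial and the 20 highest genes it was 19.1%. In bulk RNA, fewer collagen-producing cells and less collagen RNA per cell cannot be told apart. Col1a1, Col1a2 and Col3a1 ranked 22, 62 and 93 among all symbols by mean TPM, and together held 57.9% and 53.3% of collagen TPM under DMSO and 51.8% and 52.4% under CX-5461.

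**Figure D1:**
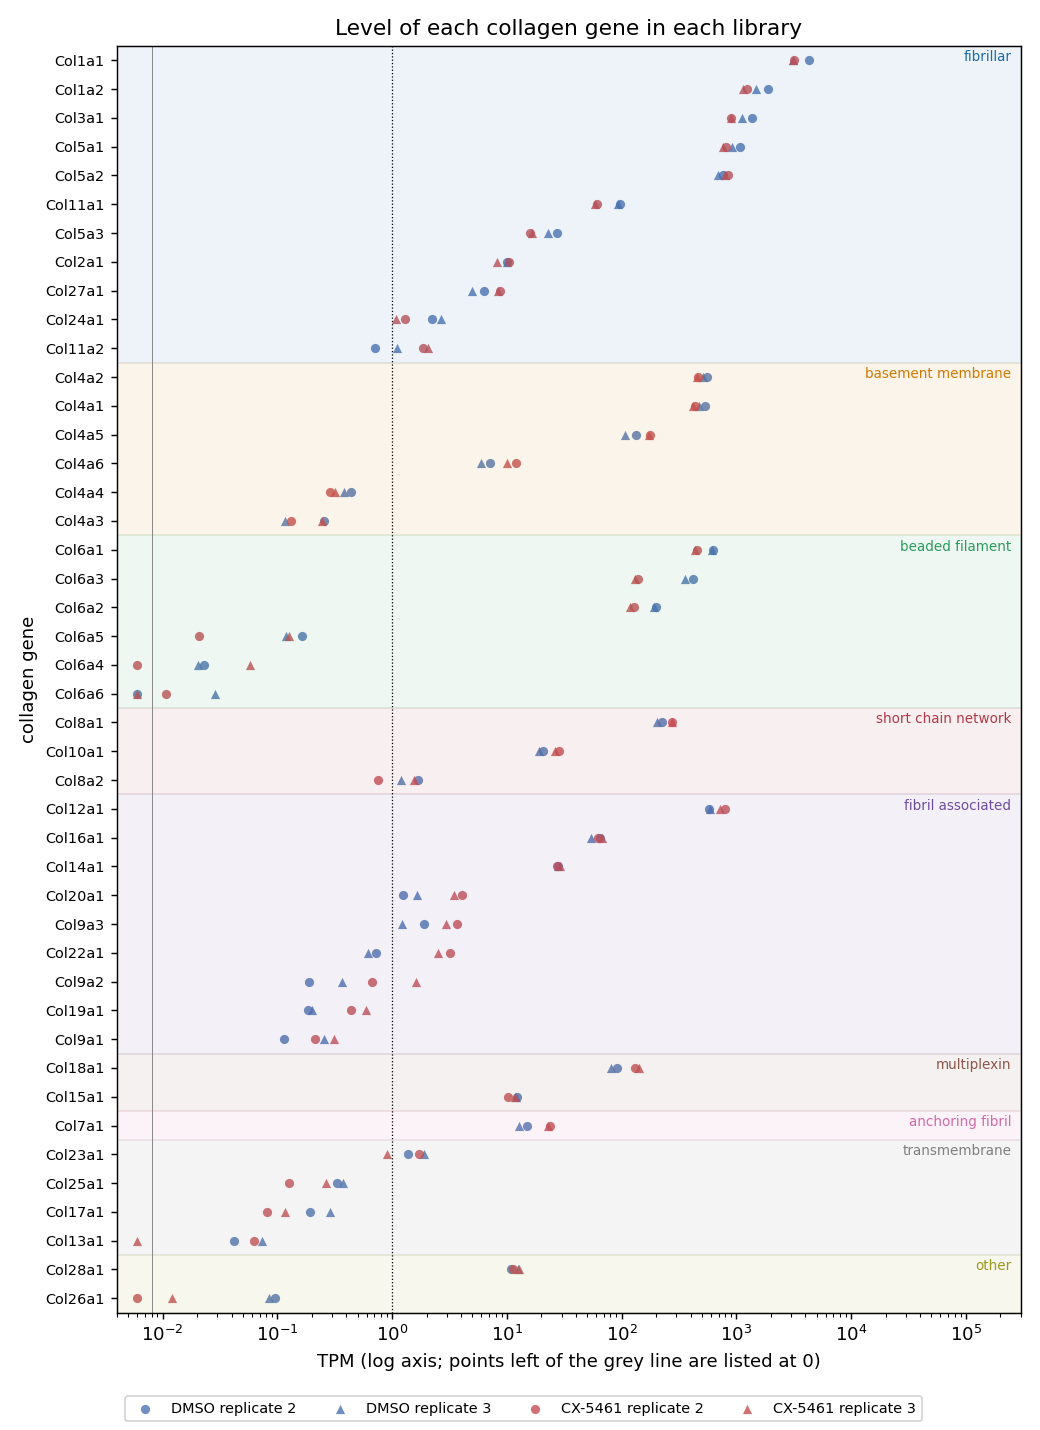
Level of each collagen gene in TPM (log scale) in the 4 libraries, with genes grouped by collagen class, color showing treatment and shape the replicate number. Points left of the grey line are listed at 0. Most collagen mRNA lay in the fibrillar chains, and 12 genes lay below the mean of 1 TPM needed for testing.

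The collagen genes moved in both directions at day 2. Of the 44, 32 averaged 1 TPM or more across the libraries and were tested. By limma on log2(TPM + 1), with Benjamini-Hochberg adjustment over all 14621 genes tested and a threshold of 0.05, 9 collagens were higher and 6 lower under CX-5461. The background for these counts was 11.6% of all tested genes called higher and 8.21% called lower, against 28.1% and 18.8% of the tested collagens. In either direction 15 were called, 46.9% beside a background of 19.8%, and the other 17 tested genes did not pass. With no filter on low values, 3 collagens were higher (background 4.93%) and 4 lower (3.86%), and limma's voom on read units called 12 higher (16.1%) and 11 lower (15.4%). Both CX-5461 libraries lay above both DMSO libraries for 13 tested collagens (40.6%, background 38.2%) and below them for 12 (37.5%, background 26.3%), and the groups overlapped for 7. Where the groups of a called gene are said below to lie apart, for collagens and other genes alike, this describes the values. It adds no support to a call made from the same libraries. The median log2 difference, CX-5461 minus DMSO, was -0.044 over the tested collagens and 0.068 over all tested genes. The median size of the difference regardless of sign was 0.46 against 0.25. The tested collagens were also more abundant than other genes, with a median of 45.2 TPM against 18.8 TPM. Among those with a mean of at least 20 TPM, a limit chosen after the values were seen, 11 of 19 collagens (57.9%) were called in either direction, against 23.7% of all genes at that level.

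In each class where more than 1 chain passed in the TPM as deposited, those chains shared a direction. Of 11 fibrillar chains 0 rose and 3 fell, although Col27a1 passed as higher under quantile normalization (adjusted p = 0.0451) and, with Col11a2, under voom (0.00305 and 0.0185). All 3 tested type VI chains fell. Of 4 tested basement membrane chains 2 rose and 0 fell, although Col4a1 and Col4a2 passed as lower under each of the 3 other scalings. Those that rose made up 2 of 3 short chain network, 3 of 6 fibril associated, 1 of 2 multiplexin and 1 of 1 anchoring fibril genes, and 0 of these fell. Beside these class counts, 11.6% of all tested genes were called higher and 8.21% lower. Each class holds few genes, so its count is a description, and the classes were not tested against each other. With the values rescaled by median-of-ratios, or after removal of mitochondrial and the 20 highest genes, the split of 9 higher to 6 lower became 8 to 10, as Col12a1 lost its call and Col1a2, Col5a1, Col4a1 and Col4a2 passed as lower. The whole table moved the same way, to 11.2% higher and 11.5% lower by median-of-ratios and to 10.8% and 11.2% after that removal. Leaving out CX-5461 replicate 2 or CX-5461 replicate 3 ended all calls but that of Col6a3 (0 higher and 1 lower each time, against 2.05% and 2.73% of all genes without replicate 2 and 1.49% and 2.31% without replicate 3). Without DMSO replicate 2 the counts were 5 higher and 6 lower (14.1% and 6.09% of all genes), and without DMSO replicate 3 they were 3 higher and 10 lower (6.47% and 5.77%).

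**Figure D2:**
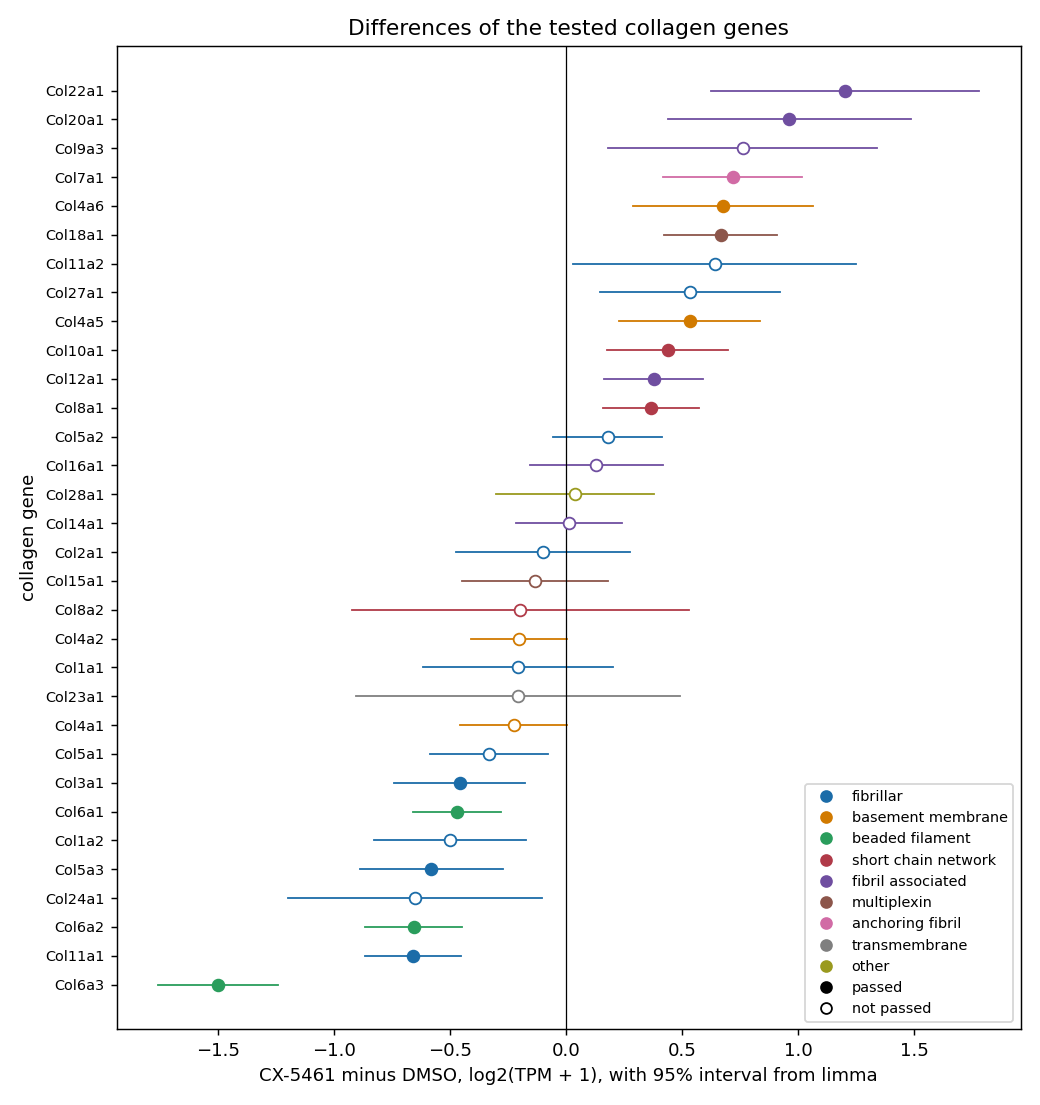
Difference of each tested collagen gene between CX-5461 and DMSO on the log2(TPM + 1) scale, with the 95% confidence interval of the limma fit as a horizontal line, color for class and filled points for genes that passed. Type VI chains lie left of 0, with Col6a3 at -1.50, and Col22a1 and Col20a1 lie farthest right at 1.20 and 0.96.

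Type VI collagen showed the largest fall. Its filaments are built from trimers of the Col6a1, Col6a2 and Col6a3 chains, which link cell surfaces and basement membranes to the surrounding fibrils. Summed over the class, the level was 1242 and 1162 TPM under DMSO and 722 and 689.6 TPM under CX-5461. All 3 chains were called lower, by unlike amounts, and shared control was not tested. The sequence upstream of each gene is given here for comparison. It is the RefSeq promoter window on GRCm38.p6, the mm10 assembly, cut back to the bases outside the annotated gene. It runs 5′ to 3′ on the gene's own strand, with 3 short motifs in capitals wherever they occur on either strand, namely the CCAAT box, the GC box core GGGCGG and the TATA box letters TATAAA. The Col6a1 window is chr10:76726169-76726294, the Col6a2 window chr10:76623631-76623880 and the Col6a3 window chr1:90843972-90844221, all on the minus strand.
Col6a1: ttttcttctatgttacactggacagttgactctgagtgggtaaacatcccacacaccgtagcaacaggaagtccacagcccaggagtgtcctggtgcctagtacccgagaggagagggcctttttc
Col6a2: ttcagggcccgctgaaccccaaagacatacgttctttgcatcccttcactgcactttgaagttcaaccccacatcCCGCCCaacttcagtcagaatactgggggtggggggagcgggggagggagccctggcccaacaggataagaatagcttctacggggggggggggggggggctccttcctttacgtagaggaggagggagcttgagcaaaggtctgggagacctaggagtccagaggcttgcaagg
Col6a3: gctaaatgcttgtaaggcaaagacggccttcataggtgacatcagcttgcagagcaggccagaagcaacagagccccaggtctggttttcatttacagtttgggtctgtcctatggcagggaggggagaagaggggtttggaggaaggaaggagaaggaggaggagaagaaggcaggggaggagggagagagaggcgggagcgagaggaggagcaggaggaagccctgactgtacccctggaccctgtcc
Col6a2 has 1 GGGCGG, read on the opposite strand, and the other two windows hold none of the 3 motifs.

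Col6a3 (chr1:90765923-90843971, minus strand) codes for the longest of the 3 chains, whose end is released as the fragment endotrophin. It was measured at 417 and 357 TPM under DMSO and at 139.8 and 131 TPM under CX-5461. The CX-5461 libraries were far below both DMSO libraries and close to each other. The mean was 387 ± 42.8 TPM (SD, n = 2) against 136 ± 5.93 TPM (SD, n = 2), a 2.85-fold fall, with a log2 difference of -1.50 (SE 0.10, 95% interval -1.76 to -1.24, limma adjusted p = 0.000987). Without each library in turn its adjusted p ranged from 0.00901 to 0.0277. No other collagen kept its call in all 4 of these fits.

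Col6a2 (chr10:76595762-76623630, minus strand) was at 199 and 193 TPM under DMSO and at 129 and 119 TPM under CX-5461 (log2 difference -0.66, SE 0.08, limma adjusted p = 0.00575). Its neighbour Col6a1 (chr10:76708792-76726168, minus strand), 85161 bases away on the same strand, was at 626 and 612 TPM under DMSO and at 454 and 439 TPM under CX-5461 (log2 difference -0.47, SE 0.08, limma adjusted p = 0.0124). For both genes the groups lay apart by far more than the libraries within a group. Without CX-5461 replicate 2 the adjusted p was 0.0664 for Col6a2 and 0.131 for Col6a1, and without CX-5461 replicate 3 it was 0.104 and 0.178. The alternative chains Col6a4, Col6a5 and Col6a6, which can take the place of Col6a3, were at or below 0.165 TPM in every library and were not tested.

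The chains did not fall by the same amount. The ratio of Col6a3 to Col6a1 within a library was 0.667 and 0.582 under DMSO and 0.308 and 0.299 under CX-5461, and that of Col6a3 to Col6a2 was 2.10 and 1.85 against 1.09 and 1.10. In both CX-5461 libraries Col6a3 was lower relative to each partner than in either DMSO library. The ratio of Col6a1 to Col6a2 went from 3.15 and 3.17 to 3.53 and 3.68, a small shift with no overlap. Ratios between chains of a library do not depend on its scaling factor. The pairs were chosen after the values were seen and have no test.

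**Figure D3:**
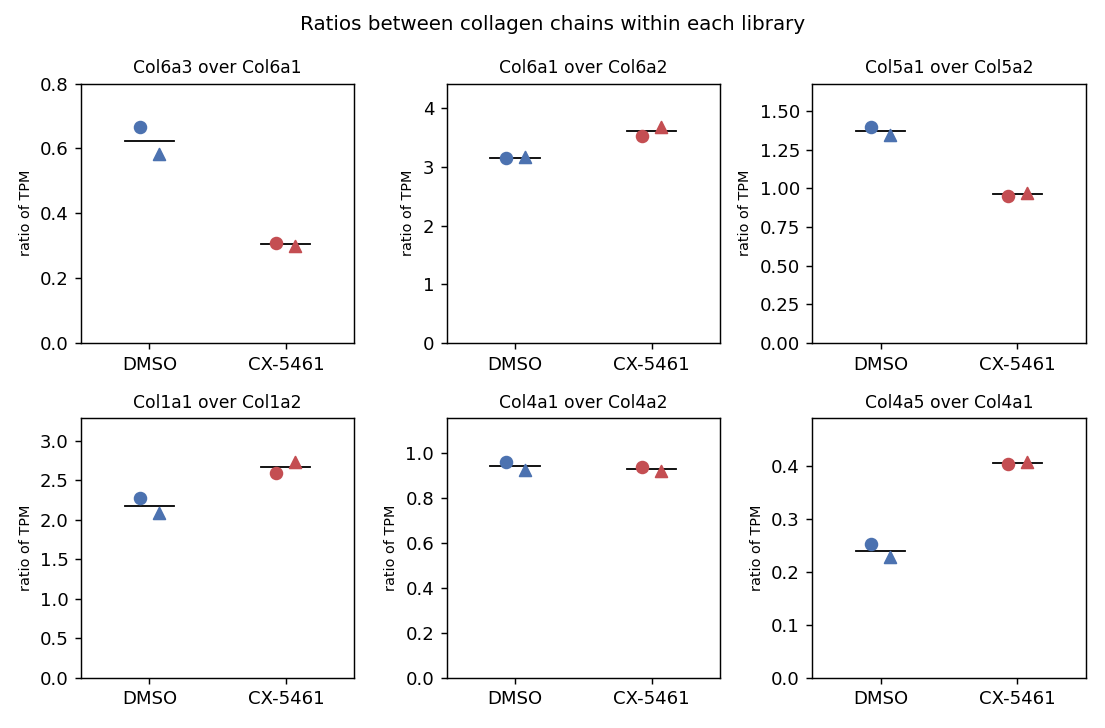
Ratios of TPM between pairs of collagen chains within each library, on linear axes from 0, with a point per library and a line at the mean of each group. Col6a3 over Col6a1 and Col5a1 over Col5a2 are lower in both CX-5461 libraries, and Col4a1 over Col4a2 overlaps between groups.

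Among the fibrillar chains, type I and type III, the bulk of interstitial fibrils, were the most abundant. Col1a1 was listed at 4321 TPM in DMSO replicate 2, but at 3114 TPM in DMSO replicate 3 and at 3202 and 3150.5 TPM in the CX-5461 libraries. The groups overlapped (log2 difference -0.21, 95% interval -0.62 to 0.20, limma adjusted p = 0.416). The value hung on which DMSO library was kept: the difference was 0.028 without DMSO replicate 2, and without DMSO replicate 3 the gene passed as lower with an adjusted p of 0.0192. Col1a2, its partner in the type I trimer, was at 1898 and 1494 TPM under DMSO and at 1231 and 1150.03 TPM under CX-5461. These groups did not overlap (log2 difference -0.50, 95% interval -0.83 to -0.17), and the limma adjusted p of 0.0503 missed the threshold. It was 0.019 under median-of-ratios scaling, 0.0417 without DMSO replicate 2 and 0.0184 without DMSO replicate 3. Type I is made of 2 Col1a1 chains and 1 Col1a2 chain. The ratio of the mRNAs in TPM was 2.28 and 2.08 under DMSO and 2.60 and 2.74 under CX-5461. Its size rests on the exon lengths, 6563 bases for Col1a1 and 12426 for Col1a2, so it cannot be set against the chain ratio. In read units Col1a1 had 145757 and 118159 under DMSO and 107837 and 104224 under CX-5461. Col1a2 had 121246 and 107364 under DMSO and 78512 and 72033 under CX-5461.

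Col3a1 (chr1:45311538-45349706, plus strand), which forms the homotrimeric type III of thin, extensible fibrils, fell from 1357 and 1116 TPM to 901 and 890.03 TPM (log2 difference -0.46, SE 0.11, limma adjusted p = 0.0423). Both CX-5461 libraries lay below both DMSO libraries, which were themselves 241 TPM apart. Its call was lost without CX-5461 replicate 2 (adjusted p = 0.231) and without CX-5461 replicate 3 (0.273). Col5a2 lies 24614 bases from Col3a1, in the opposite orientation with the 3′ ends facing. It was at 765 and 688 TPM under DMSO and at 854 and 789 TPM under CX-5461, on the higher side without passing (log2 difference 0.18, 95% interval -0.06 to 0.41, limma adjusted p = 0.237).

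Type V and type XI chains control how thick a fibril grows, and they mix with each other in trimers. Col11a1 (chr3:114030540-114220718, plus strand) fell from 96.6 and 93.3 TPM to 61.3 and 58.1 TPM (log2 difference -0.66, SE 0.08, limma adjusted p = 0.00565). Col5a3 (chr9:20770050-20815067, minus strand) fell from 27.5 and 22.7 TPM to 16.1 and 16.7 TPM (log2 difference -0.58, SE 0.12, limma adjusted p = 0.0279). The groups of both genes were well apart. Without CX-5461 replicate 2 the adjusted p was 0.0673 for Col11a1 and 0.161 for Col5a3, without CX-5461 replicate 3 it was 0.0964 and 0.163, and without DMSO replicate 2 Col5a3 reached 0.0633. Col5a1, the chain present in most type V trimers, was at 1069 and 923 TPM under DMSO and at 815 and 765 TPM under CX-5461, with an adjusted p of 0.0752. It passed as lower under median-of-ratios scaling (0.0266) and without DMSO replicate 3 (0.0336). The ratio of Col5a1 to its partner Col5a2 in TPM was 1.40 and 1.34 under DMSO and 0.953 and 0.969 under CX-5461. Which chain is the more abundant rests on the exon lengths used for TPM, so only the shift between groups is read. Neither chain passed in the TPM as deposited.

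The remaining fibrillar chains were low. Col2a1, the cartilage fibril chain that pairs with type XI, was at 10.1 TPM in both DMSO libraries and at 10.5 and 8.27 TPM under CX-5461. Col11a2 was at 0.708 and 1.11 TPM under DMSO and at 1.85 and 2.06 TPM under CX-5461 (log2 difference 0.64, limma adjusted p = 0.126), and it passed the filter only through the CX-5461 group. Of the other 2, Col24a1 had a log2 difference of -0.65 (adjusted p = 0.0937) and Col27a1 of 0.53 (0.0664). The groups of both genes were apart, lower for Col24a1 and higher for Col27a1, and neither passed here. Col24a1 passed without limma's trend and robust options (0.0375), and with voom both passed (0.00619 and 0.00305).

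Among basement membrane collagens, the mRNAs of Col4a5 and Col4a6 passed as higher in the TPM as deposited. Type IV has 6 chains, and the common network is built from Col4a1 and Col4a2. A second kind of trimer combines Col4a5 with Col4a6, as in the basement membranes of skin and smooth muscle, and another combines Col4a5 with Col4a3 and Col4a4. Col4a5 (chrX:141475385-141689234, plus strand) rose from 134 and 107 TPM to 176 and 172 TPM (log2 difference 0.53, SE 0.12, limma adjusted p = 0.0343). Col4a6 (chrX:141165403-141474076, minus strand) rose from 7.13 and 5.94 TPM to 12.0 and 10.1 TPM (log2 difference 0.68, SE 0.16, limma adjusted p = 0.0345). The CX-5461 libraries lay above both DMSO libraries for both genes. Without CX-5461 replicate 2 the adjusted p was 0.197 for Col4a5 and 0.195 for Col4a6, and without CX-5461 replicate 3 it was 0.206 and 0.128. Col4a6 was also lost without DMSO replicate 2 (0.0503) and without DMSO replicate 3 (0.116).

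These genes sit head to head on chromosome X with 1308 bases between them, so they share an upstream region. The window of Col4a5 is chrX:141475169-141475384 on the plus strand and that of Col4a6 is chrX:141474077-141474326 on the minus strand (GRCm38.p6, capitals as above).
Col4a5: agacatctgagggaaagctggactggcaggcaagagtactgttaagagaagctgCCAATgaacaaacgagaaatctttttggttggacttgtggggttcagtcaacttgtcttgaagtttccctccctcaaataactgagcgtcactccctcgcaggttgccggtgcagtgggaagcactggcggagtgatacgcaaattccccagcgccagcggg
Col4a6: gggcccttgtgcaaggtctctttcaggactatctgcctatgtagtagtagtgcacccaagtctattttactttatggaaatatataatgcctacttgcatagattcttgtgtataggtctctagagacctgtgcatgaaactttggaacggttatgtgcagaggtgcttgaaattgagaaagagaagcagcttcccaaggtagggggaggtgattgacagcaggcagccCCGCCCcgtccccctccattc
The Col4a5 window holds 1 CCAAT and the Col4a6 window 1 GGGCGG, read on the opposite strand. Col4a5 was the more abundant by 18.9 and 18.03 times under DMSO and by 14.7 and 17.03 times under CX-5461.

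The common chains lay lower in both CX-5461 libraries without passing. Col4a1 was at 533 and 469.7 TPM under DMSO and at 435 and 421 TPM under CX-5461 (limma adjusted p = 0.146). Col4a2, whose start lies 21 bases from that of Col4a1 on the opposite strand, was at 555 and 509 TPM against 465 and 459 TPM (adjusted p = 0.147). Both passed under median-of-ratios scaling (0.0453 and 0.0474). Their ratio was 0.961 and 0.923 under DMSO and 0.935 and 0.919 under CX-5461, overlapping between groups. In contrast the ratio of Col4a5 to Col4a1 went from 0.252 and 0.228 to 0.405 and 0.409. Col4a3 and Col4a4 were at or below 0.44 TPM in every library and were not tested.

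Of 3 collagens that anchor or border basement membranes, Col18a1 and Col7a1 rose and Col15a1 did not pass. Col18a1 (chr10:77052178-77166548, minus strand), a heparan sulfate collagen whose end is released as endostatin, was at 91.2 and 80.4 TPM under DMSO and at 132 and 141 TPM under CX-5461. The mean went from 85.8 ± 7.66 to 136 ± 6.54 TPM (SD, n = 2 each; log2 difference 0.67, SE 0.10, limma adjusted p = 0.00906). It lies 326009 bases from Col6a1, which fell. Col7a1 (chr9:108953586-108984875, plus strand), the sole component of the anchoring fibrils that tie epithelial basement membrane to dermis, rose from 15.04 and 12.7 TPM to 23.7 and 23.0 TPM (log2 difference 0.72, SE 0.12, limma adjusted p = 0.0137). Neither gene's groups overlapped. Without CX-5461 replicate 2 the adjusted p was 0.081 for Col18a1 and 0.11 for Col7a1, and without CX-5461 replicate 3 it was 0.122 and 0.117. Col15a1, the other multiplexin, had a log2 difference of -0.14 (adjusted p = 0.49).

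Keratinocyte markers, of the epithelium that type VII anchors, were listed for comparison. Of 10, 6 were tested, 2 rose (33.3%, background 11.6%) and 1 fell (16.7%, background 8.21%). Those that rose were Itgb4, an integrin chain, and Dsc3, which passed the filter only through the CX-5461 group. Lamb3 was the marker that fell. Dsc3 rested on 18 and 13 read units under DMSO and on 58.5 and 78.5 under CX-5461. Lamb3 rested on 118.5 and 131 against 54.5 and 46. In simulated data, false calls exceeded the threshold mainly among genes with few reads, as both are. The summed level of the list was 103 to 104 TPM under DMSO and 159 to 203 TPM under CX-5461. Itgb4 alone was at 68.6 and 66.5 TPM against 137 and 170.3 TPM. Without it the list summed to 34.9 and 36.3 TPM under DMSO and to 21.7 and 33.1 TPM under CX-5461, with Krt14 at 26.4 and 26.9 TPM against 10.8 and 18.5 TPM. Krt15, Trp63, Krt1 and Dsg3 were below 1 TPM in every library. Endothelial markers, of another cell with much type IV and type XVIII, summed to 50.6 to 51.0 TPM against 57.2 to 58.3 TPM. Pecam1, Cdh5, Tie1 and Emcn were below 1 TPM throughout. Of the 2 tested, Kdr rose and Tek fell (50% each way, background 11.6% and 8.21%). The part of such cells in the collagen values was not tested.

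Of the 3 short chain network collagens, 2 rose. Col8a1, of the hexagonal network under corneal endothelium and in vessel walls, went from 223 and 205 TPM to 275.4 and 275.3 TPM (log2 difference 0.36, SE 0.08, limma adjusted p = 0.0337). Its partner chain Col8a2 was far lower, at 1.69 and 1.19 TPM under DMSO and at 0.76 and 1.55 TPM under CX-5461, and did not pass. Col10a1, the collagen of hypertrophic cartilage, went from 20.8 and 19.1 TPM to 28.7 and 26.2 TPM (log2 difference 0.44, SE 0.11, limma adjusted p = 0.0384). The CX-5461 libraries were above both DMSO libraries for Col8a1 and Col10a1, and overlapped them for Col8a2. The adjusted p for Col8a1 was 0.222 and 0.249 without CX-5461 replicates 2 and 3 and 0.0507 without DMSO replicate 3. For Col10a1 it was 0.227 and 0.164 without CX-5461 replicates 2 and 3, and 0.0542 and 0.111 without DMSO replicates 2 and 3. Chondrocyte markers summed to 13.8 to 13.9 TPM under DMSO and 12.9 to 14.7 TPM under CX-5461, with Acan, Matn1 and Cnmd below 1 TPM in all libraries. Neither of the 2 tested ones passed.

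In the fibril associated class, Col12a1 was by far the most abundant member. It binds the surface of type I fibrils in tendon, fascia and other loaded tissue. Its level was 576 and 587 TPM under DMSO and 791 and 721 TPM under CX-5461 (log2 difference 0.38, SE 0.09, limma adjusted p = 0.0328). The groups were apart, but the call depended on scaling and on the libraries kept. The adjusted p was 0.0673 under median-of-ratios scaling and 0.0562 without DMSO replicate 3, and it was 0.268 and 0.184 without CX-5461 replicates 2 and 3. Col12a1 amounted to 0.133 and 0.189 of the Col1a1 level under DMSO and to 0.247 and 0.229 of it under CX-5461.

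The largest rises in log2 difference were in 2 scarce members of this class. Col22a1 (chr15:71795795-72034227, minus strand), a collagen of muscle and tendon junctions, was at 0.719 and 0.62 TPM under DMSO and at 3.20 and 2.51 TPM under CX-5461. That was 34 and 33 read units against 151 and 116.5, a 4.26-fold rise in mean TPM (log2 difference 1.20, SE 0.23, limma adjusted p = 0.021). It was tested only because of its level in the CX-5461 group. Col20a1 went from 1.25 and 1.66 TPM to 4.10 and 3.44 TPM, or 33 and 49.25 read units against 108.25 and 89.25 (log2 difference 0.96, SE 0.21, limma adjusted p = 0.0296). The groups of both genes were far apart for their low level. In simulated data, however, false calls exceeded the threshold mainly among genes with few reads, as these are. Each library mattered, with adjusted p of 0.058 to 0.144 for Col22a1 and 0.07 to 0.173 for Col20a1 when any of the 4 was left out.

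Other fibril associated members did not pass. Col14a1 was level, at 27.9 and 28.2 TPM under DMSO and 27.5 and 29.2 TPM under CX-5461 (log2 difference 0.013, limma adjusted p = 0.936), and Col16a1 had a log2 difference of 0.13 (0.469). Col9a3, a chain of the cartilage type IX, had a log2 difference of 0.76 (0.0746) with groups that did not overlap. Col28a1 had a difference of 0.038 (0.868) and Col23a1, the only transmembrane collagen tested, of -0.21 (0.634).

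The 12 collagens under the filter were Col4a3, Col4a4, Col6a4, Col6a5, Col6a6, Col9a1, Col9a2, Col13a1, Col17a1, Col19a1, Col25a1 and Col26a1. The highest value of any of them was 1.60 TPM, for Col9a2 in CX-5461 replicate 3. Col9a2, with a mean of 0.704 TPM, was the nearest to the filter from below, and Col8a2, with 1.30 TPM, the nearest from above. Of the 44 genes, 40 were above 0 in all 4 libraries. At such levels a gene rests on few reads. Col17a1, the hemidesmosome collagen of keratinocytes, had 6 and 10 read units under DMSO and 2.5 and 3.5 under CX-5461, which is too few to set a difference against the spread.

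The upstream windows were compared over the collagens with a matched promoter. RefSeq promoters were matched for 35 of the 44 genes, with Col1a1, Col5a2 and Col12a1 among those without a match. The 250 bases before the RefSeq start were searched on both strands. For Col25a1, Col27a1 and Col1a2 that start lay 49344, 1408 and 804 bases inside the annotated gene, so their windows lie within it. The GC box core GGGCGG was found in 21 of 35 (60%), against 32.7% of 32851 mouse promoters. CCAAT was found in 12 of 35 (34.3% against 33.8%) and TATAAA in 5 of 35 (14.3% against 12.4%). The collagen windows were also richer in G and C, with a median of 59.2% against 52.4%, and the part of this in the GGGCGG share was not tested. By direction, GGGCGG was in 3 of the 6 windows of genes that fell and in 5 of the 7 matched windows of genes that rose. These counts use the full 250 bases, so that of Col4a5 includes a GGGCGG in the 34 bases inside the annotated gene that were left out of the printed run. A match is a description of these letters and not a site of binding.

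The genes that process collagen did not follow as a block. A collagen chain is hydroxylated and glycosylated in the endoplasmic reticulum, folded by chaperones, exported, trimmed of its propeptides and cross-linked outside the cell. Of 80 genes on a list of these steps, 74 were tested, 8 were higher and 8 lower, or 10.8% in each direction beside the background of 11.6% and 8.21%. The median log2 difference was 0.034, against 0.068 over all genes. The list thus held about the share of calls seen over all genes. By role, 5 to 17 genes were tested, with 1 of the 5 cross-linking genes lower (20%). Fewer genes of the list were called without either CX-5461 library, and the same held for all genes tested.

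Among the 14 tested hydroxylation and glycosylation genes, 2 rose and 1 fell (14.3% and 7.14%, near the background of 11.6% and 8.21%). P3h2, a prolyl 3-hydroxylase acting mainly on basement membrane collagen, was at 14.3 and 12.7 TPM under DMSO and at 24.1 and 29.1 TPM under CX-5461 (log2 difference 0.92, SE 0.13, limma adjusted p = 0.00851). Plod2, the lysyl hydroxylase of the telopeptides that prepares cross-links, was at 76.5 TPM in both DMSO libraries and at 120.4 and 136 TPM under CX-5461 (log2 difference 0.73, SE 0.09, limma adjusted p = 0.00568). Colgalt1, which adds galactose to hydroxylysine, fell from 160.1 and 159 TPM to 109 and 106 TPM (log2 difference -0.56, SE 0.08, limma adjusted p = 0.00739). All 3 had groups well apart. Without CX-5461 replicate 3 the adjusted p was 0.0912, 0.0881 and 0.122 in the same order, and without CX-5461 replicate 2 that of Colgalt1 was 0.0924.

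For folding and export, 1 of 17 genes passed, as lower (5.88%, background 8.21%). Serpinh1, the collagen chaperone HSP47, was at 2629.6 and 2323 TPM under DMSO and at 2209.7 and 2067 TPM under CX-5461 without passing (log2 difference -0.21, limma adjusted p = 0.206). Sec24d, a coat protein of the vesicles that carry procollagen, fell from 110.1 and 112 TPM to 86.9 and 78.8 TPM (log2 difference -0.42, SE 0.09, limma adjusted p = 0.0269). Its call was lost without DMSO replicate 3 (0.0688), CX-5461 replicate 2 (0.123) and CX-5461 replicate 3 (0.237).

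Of the 7 tested genes of propeptide removal, 1 rose and 2 fell (14.3% and 28.6%, background 11.6% and 8.21%). Bmp1, which removes the C-terminal propeptide of fibrillar collagens, rose from 99.6 and 87.3 TPM to 149 and 152 TPM (log2 difference 0.69, SE 0.10, limma adjusted p = 0.00741). Adamts3 and Adamts14, which remove the N-terminal one, fell: Adamts3 from 5.77 and 5.30 TPM to 2.40 and 1.55 TPM (log2 difference -1.15, SE 0.21, adjusted p = 0.0178), and Adamts14 from 8.25 and 6.39 TPM to 3.37 and 4.22 TPM (log2 difference -0.79, SE 0.19, adjusted p = 0.0378). No group overlapped another in these 3 genes. Without CX-5461 replicates 2 and 3 the adjusted p of Bmp1 was 0.0852 and 0.107, and each library left out ended the calls of Adamts3 (0.0514 to 0.109) and Adamts14 (0.0675 to 0.186). Of the cross-linking oxidases, Loxl1 fell from 398 and 411 TPM to 299.7 and 283 TPM (limma adjusted p = 0.0139, and 0.12 and 0.184 without CX-5461 replicates 2 and 3), while Lox was at 1820.4 and 1982 TPM against 1903 and 1834 TPM and did not pass.

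Of the 13 proteins that coat or cross-bridge fibrils, 3 rose and 2 fell (23.1% and 15.4%, background 11.6% and 8.21%). Lum (lumican) and Dcn (decorin), the small leucine-rich proteoglycans that bind type I fibrils and limit their width, fell. Lum went from 154 and 157 TPM to 75.7 and 75.6 TPM (log2 difference -1.03, SE 0.08, limma adjusted p = 0.00131), and it kept the call without each library (0.00901 to 0.0373). Dcn went from 222 and 246 TPM to 153 and 159 TPM (log2 difference -0.58, SE 0.09, limma adjusted p = 0.0101). Tnxb (tenascin-X), a fibril-bridging glycoprotein, rose from 11.9 and 9.80 TPM to 20.7 and 22.5 TPM (log2 difference 0.93, SE 0.13, limma adjusted p = 0.00812). Aebp1, a collagen-binding secreted protein, rose from 520.4 and 529.5 TPM to 741 and 716 TPM (log2 difference 0.47, SE 0.08, limma adjusted p = 0.0125). Fn1, the fibronectin on which fibrils assemble, also passed as higher in the TPM as deposited (adjusted p = 0.0271), but not in every scaling (at most 0.0579). Without CX-5461 replicates 2 and 3 the adjusted p was 0.118 and 0.119 for Dcn, 0.0664 and 0.0973 for Tnxb, 0.156 and 0.152 for Aebp1, and 0.243 and 0.266 for Fn1.

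Receptors and breakdown gave 3 calls. Of 12 tested receptor and uptake genes 1 rose and 1 fell (8.33% each), beside backgrounds of 11.6% and 8.21%. Of 6 tested breakdown genes 1 rose (16.7%). Ddr1, a receptor tyrosine kinase that collagen activates, rose from 95.6 and 86.7 TPM to 155 and 158 TPM (log2 difference 0.78, SE 0.09, limma adjusted p = 0.00409). Cspg4, a proteoglycan that binds type VI collagen, fell from 51.7 and 46.6 TPM to 32.6 and 33.6 TPM (log2 difference -0.56, SE 0.10, limma adjusted p = 0.0144). Mmp2, a gelatinase that also cleaves type IV, rose from 398 and 355 TPM to 497 and 516 TPM (log2 difference 0.43, SE 0.09, limma adjusted p = 0.0269). In all 3 genes the groups did not overlap. Without CX-5461 replicates 2 and 3 the adjusted p was 0.0629 and 0.0739 for Ddr1, 0.123 and 0.126 for Cspg4, and 0.173 and 0.236 for Mmp2.

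**Figure D4:**
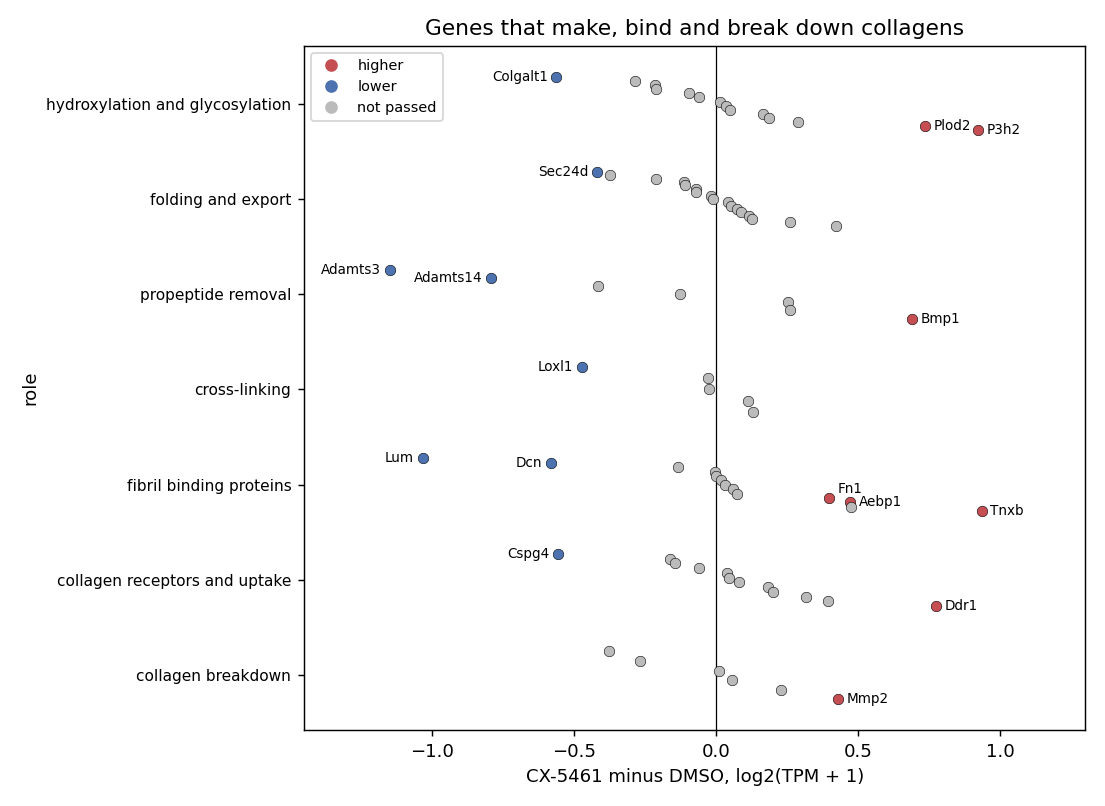
Difference between CX-5461 and DMSO on the log2(TPM + 1) scale (horizontal) for the tested genes that make, bind or break down collagen, in rows by role, with those that passed named and colored by direction. The small vertical offsets within a row only separate the points. Genes that passed lie on both sides of 0, 8 above and 8 below.

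Of the 11 fibroblast markers, 0 rose and 6 fell (Pdgfra, Thy1, Twist2, Prrx1, Fbln1 and Fstl1) by the limma test, or 54.5% beside the background of 8.21%. The other 5 did not pass. Of these, Pdgfrb and Vim were lower in both CX-5461 libraries, Twist1 and Cd34 were higher in both (log2 difference 0.28 each), and S100a4 overlapped between groups (0.29). Their part in the collagen results was not tested. Osteoblast and macrophage lists summed to 18.8 to 19.5 and 48.3 to 70.9 TPM under DMSO and to 21.2 to 26.7 and 65.5 to 81.8 TPM under CX-5461. Of their tested members, 1 of 3 osteoblast (Bglap, 33.3%) and 1 of 4 macrophage (Adgre1, 25%) markers rose, beside a background of 11.6%, and none fell. Bglap rested on 6.5 and 6 read units under DMSO and on 12.92 and 24.25 under CX-5461. Ibsp, Alpl and Dmp1 of the osteoblast list were below 1 TPM in every library, and Aif1 of the macrophage list was at 0. Simple epithelial markers, of which Epcam and Esrp1 were below 1 TPM throughout, summed to 13.6 to 17.3 TPM and 14.2 to 15.8 TPM, and 0 of the 4 tested passed. Smooth muscle and pericyte markers summed to 3630 to 3824 TPM and 2996 to 3577 TPM, and 1 of 6, Des, rose (16.7%, background 11.6%).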

How the data were processed

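Polyadenylated RNA of 4 libraries, 2 per group, was sequenced as paired 150-base reads, per the labels. The labels give the embryos' age as 13.5 days post coitum and the medium of both groups as 15% KnockOut Serum Replacement with 1000 U/mL LIF. The authors deposited 1 table of TPM values, scaled to a common total per library. Build mm10 is named in the submitters' processing notes, and not given in the sources used here are the aligner, the counter and the annotation. Columns were matched to samples by day, treatment and replicate number, and 0 columns were left unused. Since TPM are relative, a rise of abundant genes lowers all others in a library.

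The test was limma (version 3.58.1, R 4.3.3) on log2(TPM + 1), a scale that understates fold changes of low genes, for every gene averaging 1 TPM or more. It used lmFit and a trended, robust eBayes without covariates. Benjamini-Hochberg adjustment ran over the 14621 genes, with 2 residual and 3.75 prior degrees of freedom per gene. The procedure was tested on simulated data, where false calls exceeded the threshold mainly among genes with few reads. An exact two-sided permutation test of 2 against 2 libraries cannot give a p below 0.333. Low TPM values are multiples of a step set by the exon length (GENCODE M21), which gave read units, the most common lowest step. Of values under 5000 units, 87.9 to 88.4% lay within 0.01 of a multiple of 0.25 units and 37.1 to 38.4% within 0.01 of a whole unit. Whether a unit is a read or a pair cannot be told. The files do not state strand, so reads of overlapping genes cannot be told apart. Replicate numbers were not taken to pair libraries.

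The collagens, the collagen processing list and the marker lists were chosen with earlier results of these data known. A further marker list is not reported here. Named with the value in every library were the collagens that passed, chains that share a trimer with one, the 5 most abundant, and up to 4 members per processing role with the smallest adjusted p. Col4a1, Col4a2, Col14a1, Lox and Serpinh1 were added after their values were seen. Other settings were pseudocounts, filters, scalings, limma options, a replicate block and each library left out, and, added after the data were seen, limma's voom on read units. Promoter sequences came from RefSeq (GRCm38.p6). Python 3.11.15, numpy 2.4.6, pandas 2.3.3 and matplotlib 3.10.9 were used.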

Additional observations from a re-analysis of the deposited data

How the results depend on the processing

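With each library left out, collagens called higher ranged from 0 to 5 and lower from 1 to 10, and pathway genes called higher from 0 to 12 and lower from 1 to 7, against 9, 6, 8 and 8 with all libraries. The lowest counts came without CX-5461 replicate 2 or 3, where fewer genes of the whole table were called as well (697 and 555 against 2895). The cause was not tested. Collagens called higher fell to 3 with no filter and to 5 without the trend and robust options. Of all tested genes, 4.93% and 7.71% were called higher in these settings, against 11.6% in the main fit. Collagens called lower rose to 10 under each of 3 scalings (quantile, median-of-ratios, and TPM rescaled after removal of mitochondrial and the 20 highest genes), where 11.2 to 11.5% of all genes were called lower against 8.21% in the TPM as deposited, and to 11 with voom on read units. Pathway genes called lower rose to 13 under quantile normalization and 15 with voom. With voom, 12 collagens were called higher, and the backgrounds were 16.1% higher and 15.4% lower. The cause was not tested.

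All 15 called collagens kept their sign without each library, and 14 kept the call in all 3 scalings, Col12a1 being the exception. A fit without a CX-5461 library takes its spread within a group from the 2 DMSO libraries alone. The median collagen difference stayed between -0.11 and 0.06 and the fall of the summed level between 5.98 and 22.7%. Sign changes were seen only in collagens that had not passed: Col14a1 (-0.054 under median-of-ratios, -0.053 under quantile, -0.057 rescaled, -0.042 with voom) and Col28a1 (-0.027 under median-of-ratios, -0.030 rescaled, -0.017 with voom). With each library left out, the difference ranged from -0.030 to 0.055 for Col14a1, -0.064 to 0.139 for Col28a1, -0.44 to 0.028 for Col1a1, -0.00028 to 0.26 for Col16a1, -0.26 to 0.057 for Col2a1, -0.46 to 0.044 for Col23a1 and -0.47 to 0.068 for Col8a2.

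A fit with the replicate number as a block called 7 collagens higher and 7 lower, and 8 and 8 pathway genes. It called 10.9% of all tested genes higher and 7.52% lower. Col12a1 (adjusted p = 0.0501) and Col8a1 (0.0533) were lost and Col1a2 (0.0278) was gained. Across the tested genes, the deviations of same-numbered libraries from their group means correlated at 0.0307. With 2 libraries per group this value cannot settle whether same-numbered libraries were paired. The block fit is therefore not read as a paired analysis. Low members such as Col22a1 and Col20a1 rest on few reads, where false calls exceeded the threshold in simulated data, so their adjusted p may be too small. The 12 untested ones rest on at most 27.8 read units per library.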
